A study of Mus musculus with 12 samples.

Results

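The genes examined were 2 glucose transporters (Slc2a1 and Slc2a3) and 8 glycolytic enzymes (Hk1, Hk2, Pfkp, Pgk1, Eno1, Eno2, Ldha and Ldhb). They were listed by name and make up 10 of the 14317 genes of the expression table. All 10 were found in the table and all passed the minimum for testing. The comparison asked whether genes of glucose uptake and genes of glycolysis were changed alike by ischemia and reperfusion.

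Brain tissue was labelled as penumbra, the rim around the ischemic core, of the cortex on the operated side. It came from 6 Sham mice and from 6 tMCAO/R mice, in which a nylon suture had closed the middle cerebral artery for 60 min before 24 h of reperfusion. Every mouse was described as a male C57BL/6J animal of 8 weeks with no genetic change, and how the Sham operation was done is not given in the sources used here. Poly(A) RNA of each mouse gave 1 library, and the deposited values are FPKM, that is, fragments scaled to gene length and library size.

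Neurons and glia depend on glucose from the blood. GLUT1, the product of Slc2a1, carries it across the brain endothelium and into astrocytes, and GLUT3, the product of Slc2a3, carries it into neurons. Hexokinase and phosphofructokinase then trap and commit the sugar, phosphoglycerate kinase forms ATP, enolase makes phosphoenolpyruvate, and lactate dehydrogenase interconverts pyruvate and lactate. Many of these genes are known targets of hypoxia-inducible factors, which bind DNA at a short core sequence when oxygen is low.

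Both transporter genes rose in tMCAO/R mice, whereas the 8 enzyme genes split: Pfkp rose, Eno1 fell and 6 did not pass the test. Throughout, rose and fell are used for an adjusted p below 0.01 with limma on log2(FPKM + 1), which understates the change of genes with low FPKM. Thus 3 of the 10 genes rose, against 17.8% of the 11743 tested genes, and 1 of 10 fell, against 17.8% of tested genes in that direction, so that 4 of 10 were called where 35.6% of tested genes were. The FPKM of the groups did not overlap for the same 4 genes, 3 higher and 1 lower, against 13.8% and 13.2% of tested genes. None of the 10 passed a |log2FC| of 2.

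Each library held 13483607 to 15799130 fragments in the Sham group and 13048211 to 14980616 in the tMCAO/R group. The library of tMCAO/R mouse 4 stood apart, since its median Spearman correlation to its own group was 0.908, where the rest of that group lay between 0.964 and 0.974. The share of mitochondrial transcripts in it was 8.69%, where the 5 others of its group had 2.85% to 4.66% and the Sham libraries 5.29% to 8.51%. These 5 libraries thus lay below every Sham library and mouse 4 just above the highest, and the part of this share in the results was not tested. Without this library 5 of the 10 genes rose, because Hk1 and Eno2 then passed the test, against 22.4% of tested genes, and Eno1 still fell. Ddx3y, a gene of chromosome Y, was listed at 0 in all 6 Sham mice and lay between 5.49 and 12.1 FPKM in tMCAO/R mice, which goes against the description of all mice as male. A difference of sex between the groups and the effect of the operation cannot be told apart here.

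**Figure D1:**
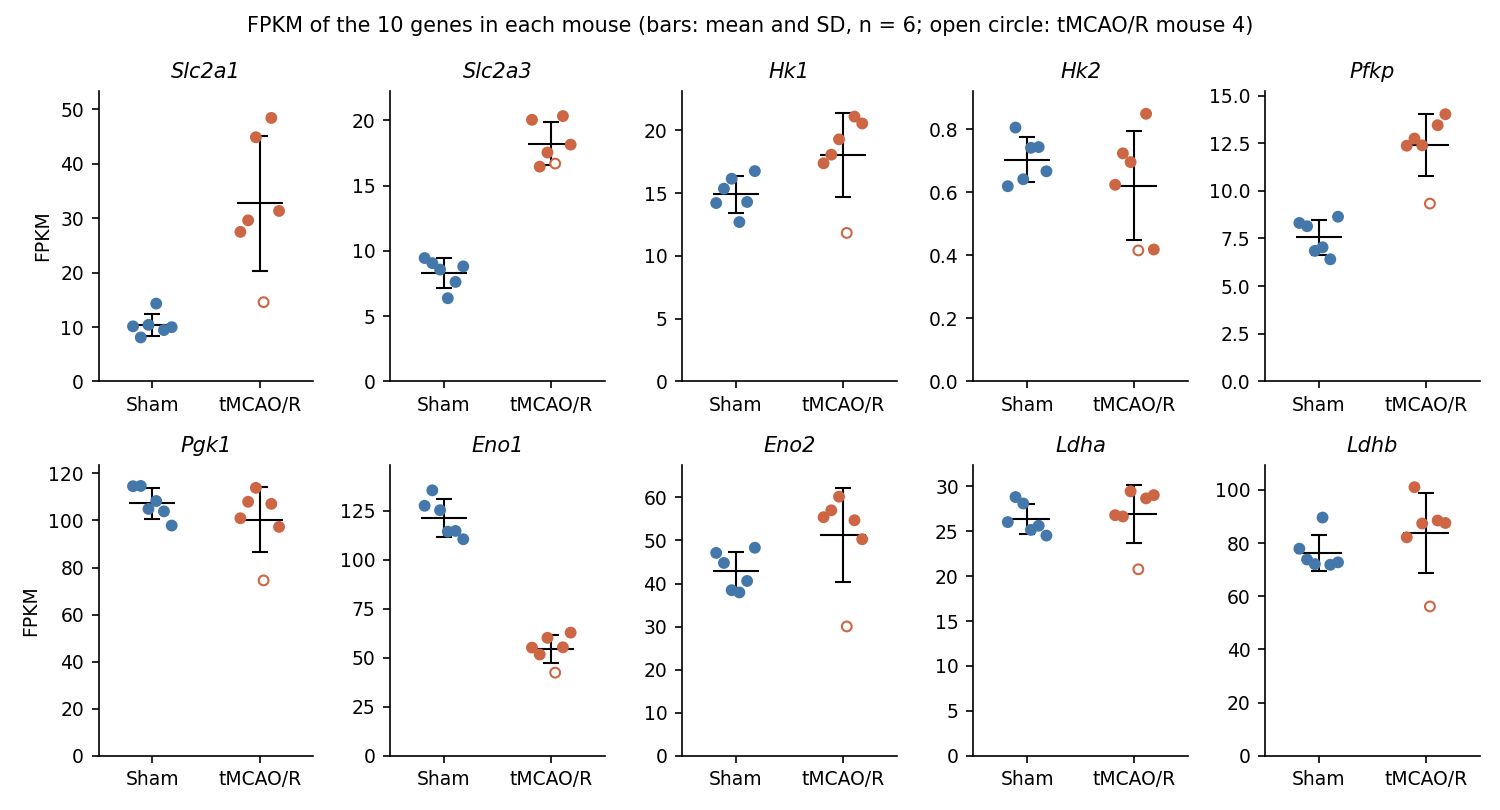
FPKM (vertical axes, starting at 0) of the 10 genes in each mouse, with Sham mice in blue and tMCAO/R mice in orange. Horizontal bars and whiskers are the mean and SD of 6 mice, and the open circle is tMCAO/R mouse 4. The groups are apart for Slc2a1, Slc2a3, Pfkp and Eno1 and overlap for the other 6 genes.

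Slc2a1 showed the largest change of the 10 genes. It lies on chr4:118965908-118996365 (GRCm39, plus strand, 10 exons in its canonical transcript). Its FPKM in Sham mice 1 to 6 were 10.1, 8.08, 10.4, 14.3, 9.44 and 9.97. In tMCAO/R mice 1 to 6 they were 27.5, 29.6, 44.9, 14.6, 48.4 and 31.3. All 6 tMCAO/R mice lay above the highest Sham mouse, but mouse 4 did so by only a small margin. The mean of 6 mice rose from 10.4 ± 2.09 FPKM (SD) in Sham to 32.7 ± 12.4 FPKM in tMCAO/R. The log2FC was 1.49 with a standard error of 0.23 (adjusted p = 0.000112, limma). The ratio of the means was 3.15, and 3.50 without tMCAO/R mouse 4. The spread among mice also differed, with a coefficient of variation of 20.1% in Sham and 37.8% in tMCAO/R mice.

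Slc2a3 rose in tMCAO/R mice as well. It lies on chr6:122704768-122778599 (minus strand, 10 exons). The Sham mice held 9.45, 9.06, 8.57, 6.37, 7.62 and 8.81 FPKM. The tMCAO/R mice held 20.05, 16.5, 17.5, 16.7, 20.3 and 18.1 FPKM. The groups were well apart, and mouse 4 stood among its own group. The mean rose from 8.32 ± 1.13 to 18.2 ± 1.66 FPKM (SD, n = 6 in each group), a ratio of 2.19 (log2FC 1.05, standard error 0.10, adjusted p = 1.99e-06, limma). The coefficient of variation was 13.6% in Sham and 9.09% in tMCAO/R mice.

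The 2 transporters were compared through their log2 ratio in each mouse, with 1 FPKM added to each gene. It was one of 4 such ratios between related genes, all tested by a two-sided exact permutation test with adjustment over the 4. The ratio of Slc2a1 to Slc2a3 was 0.28 ± 0.41 in Sham and 0.72 ± 0.55 in tMCAO/R mice (SD, n = 6 each). The difference of 0.44 was within the spread (exact p = 0.152, adjusted p = 0.202), so an unequal rise of the transporters was not shown. Sham mouse 4 had the highest Sham ratio, 1.05, and tMCAO/R mouse 4 had the lowest tMCAO/R ratio, -0.18. The difference was 0.60 without Sham mouse 4 (exact permutation, adjusted p = 0.0635) and 0.62 without tMCAO/R mouse 4 (adjusted p = 0.0519). Without any 1 of the other mice the adjusted p lay between 0.185 and 0.364. The adjusted p was thus lower without either of these 2 mice, but it stayed above 0.05 with each mouse left out.

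GLUT1 and GLUT3 are made in different cells, so the markers of those cells are given beside them. The counts of markers here and below stand beside 17.8% of all tested genes that rose and 17.8% that fell. Of 12 endothelial markers, 4 rose and 3 fell, and their summed FPKM ranged from 72.3 to 84.9 in Sham and from 44.9 to 91.6 in tMCAO/R mice. Cdh5, the cadherin of endothelial junctions, rose from 2.33 to 9.90 FPKM, and the lipid transporter gene Mfsd2a rose from 2.25 to 9.44. Cldn5, the tight junction claudin of brain endothelium, fell from 58.0 to 30.6 FPKM. Of 10 astrocyte markers, 2 rose and 2 fell, with sums of 296 to 339 and 274 to 375 FPKM. Of 12 neuronal markers, 5 rose and 1 fell, with sums of 866 to 1047 and 988 to 1317 FPKM. No listed marker of these 3 types was at 0 in every mouse, and their part in the rise of Slc2a1 and Slc2a3 was not tested. In bulk tissue, fewer cells of a type and less RNA per cell cannot be told apart.

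Markers of brain regions also differed between the groups. Of 10 striatal markers 9 rose, with sums of 41.4 to 58.9 FPKM in Sham and 80.4 to 618 in tMCAO/R mice. Of 10 hippocampal markers 8 fell, with sums of 220 to 301 and 50.8 to 93.3 FPKM, and 6 of 10 oligodendrocyte markers fell, with sums of 699 to 1604 and 357 to 680 FPKM. Of 9 tested markers of cortical layers, 6 rose and 1 fell. Of 3 tested markers of the choroid plexus, 2 fell, and the sums of the list ranged from 33.5 to 1864 FPKM in Sham and from 0.792 to 4.63 FPKM in tMCAO/R mice. The part of these markers in the changes of the 10 genes was not tested.

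Among the enzymes of the first steps, Pfkp rose and the hexokinases did not pass the test. Pfkp encodes the platelet type of phosphofructokinase, the enzyme of the committed step of glycolysis, and lies on chr13:6629798-6698970 (minus strand, 22 exons). Sham mice held 8.31, 8.14, 6.85, 7.04, 6.41 and 8.64 FPKM. The tMCAO/R mice held 12.4, 12.7, 12.4, 9.33, 13.4 and 14.0 FPKM. Every tMCAO/R mouse was above every Sham mouse, with mouse 4 nearest to the Sham range. The mean rose from 7.56 ± 0.915 to 12.4 ± 1.63 FPKM, a ratio of 1.64 (log2FC 0.64, standard error 0.11, adjusted p = 0.000209, limma). Pitrm1, on the opposite strand, shares 1831 exonic bases with Pfkp, and the strand setting of the counting is not stated. Pitrm1 was at 1.77 ± 0.254 FPKM in Sham and 2.29 ± 0.396 in tMCAO/R mice (log2FC 0.24, adjusted p = 0.0416, limma). The part of shared reads in the rise of Pfkp was not tested.

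Hk1, the constitutive hexokinase of brain (chr10:62104621-62215687, minus strand, 18 exons), was at 14.9 ± 1.48 FPKM in Sham and 18.0 ± 3.35 in tMCAO/R mice. The lowest, median and highest mouse held 12.7, 14.8 and 16.8 FPKM in Sham and 11.8, 18.7 and 21.1 FPKM in tMCAO/R. Of the tMCAO/R mice, 5 were above the highest Sham mouse and 1, mouse 4, was below the lowest. The difference did not pass the test (log2FC 0.24, 95% interval -0.03 to 0.51, adjusted p = 0.123, limma). Without mouse 4 the log2FC was 0.35 (adjusted p = 0.00237).

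Hk2, the inducible hexokinase of muscle and of stressed or dividing cells (chr6:82699740-82751469, minus strand, 18 exons), was scarce at 0.702 ± 0.0716 FPKM in Sham and 0.621 ± 0.174 in tMCAO/R mice. These values rested on 51 to 109 fragments per library, which limits their precision. The log2FC was -0.08 (95% interval -0.23 to 0.08, adjusted p = 0.401, limma). With 1 FPKM added to each gene, the log2 ratio of Hk2 to Hk1 was -3.22 ± 0.16 in Sham and -3.54 ± 0.24 in tMCAO/R mice. It was lower by 0.32 (exact permutation p = 0.0173, adjusted p = 0.0346), and the groups overlapped. Because Hk2 lay below 1 FPKM, the level of this ratio depends strongly on the FPKM added. Without Sham mouse 1, 2, 4 or 5, or without tMCAO/R mouse 1, 2, 3, 5 or 6, the adjusted p lay between 0.0606 and 0.0693. It lay between 0.00866 and 0.0260 without Sham mouse 3, Sham mouse 6 or tMCAO/R mouse 4. With 0.1 FPKM added in place of 1, the ratio was -4.22 ± 0.22 in Sham and -4.67 ± 0.32 in tMCAO/R mice. The difference was then -0.44 (exact permutation, adjusted p = 0.00433) and the groups did not overlap.

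The enolase genes went apart. Eno1 encodes the ubiquitous enolase, which glia use, and Eno2 the neuronal form. Eno1 (chr4:150321073-150337027, plus strand, 12 exons) was at 128, 135, 125, 114, 115 and 111 FPKM in Sham mice. It was at 55.2, 51.7, 60.2, 42.4, 55.3 and 62.8 FPKM in tMCAO/R mice, all far below the Sham range. The mean fell from 121 ± 9.64 to 54.6 ± 7.17 FPKM, to 0.45 of the Sham mean (log2FC -1.15, standard error 0.11, adjusted p = 1.52e-06, limma).

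Eno1 has 5 annotated near-identical copies, of which only Eno1b is in the table, so reads can be shared between them. Eno1b, on chromosome 18, matches Eno1 at 99.5% over 1736 of its 1747 bases. Eno1b was at 1.53 to 2.87 FPKM in Sham mice. It was at 3.41, 27.4, 3.24, 16.8, 25.6 and 4.49 FPKM in tMCAO/R mice, high in mice 2, 4 and 5 and low in the other 3. It rose (log2FC 1.77, standard error 0.45, adjusted p = 0.00495, limma), but limma-voom on whole fragments gave an adjusted p of 0.0110. In fragments, Eno1b held 79 to 138 per Sham library and 172 to 1425 per tMCAO/R library, against 15409 to 20730 and 5688 to 9268 for Eno1. With both summed, the log2FC was -1.03 (standard error 0.10, adjusted p = 1.85e-06, limma), so the sum fell as well.

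**Figure D2:**
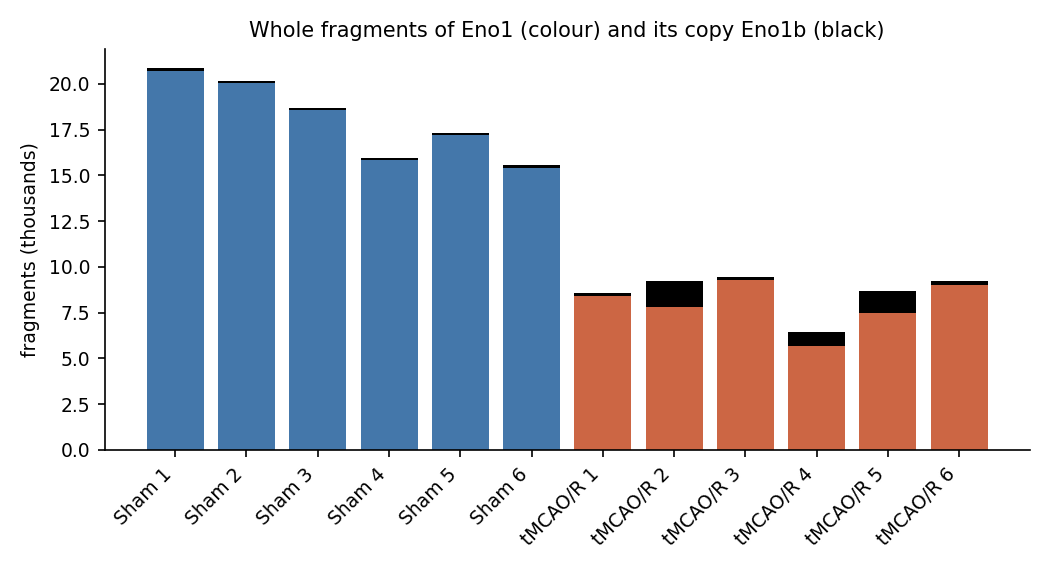
Whole fragments (vertical axis, starting at 0) of Eno1 (coloured) and of its copy Eno1b (black, stacked) in each library. Eno1 holds 15409 to 20730 fragments in the Sham libraries and 5688 to 9268 in the tMCAO/R libraries, and Eno1b adds at most 1425.

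Eno2 (chr6:124736247-124746636, minus strand, 12 exons) was at 42.9 ± 4.48 FPKM in Sham and 51.3 ± 10.9 in tMCAO/R mice. The lowest, median and highest mouse held 37.9, 42.7 and 48.3 FPKM in Sham and 30.02, 55.1 and 60.2 FPKM in tMCAO/R. As with Hk1, 5 tMCAO/R mice were above the highest Sham mouse and mouse 4 was below the lowest. The difference did not pass the test (log2FC 0.23, 95% interval -0.09 to 0.55, adjusted p = 0.222, limma), but without mouse 4 it did (log2FC 0.37, adjusted p = 0.00182).

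The log2 ratio of Eno1 to Eno2 separated the groups in every mouse. It ranged from 1.18 to 1.68 in Sham and from -0.14 to 0.48 in tMCAO/R mice, with means of 1.48 ± 0.17 and 0.11 ± 0.24 (SD, n = 6 each). The difference was -1.37 (exact permutation p = 0.00216, the smallest that 6 against 6 mice can give, adjusted p = 0.00866). With Eno1b added to Eno1, a comparison chosen after seeing the data, it was -1.26 (exact permutation, adjusted p = 0.00866).

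Among the genes examined, those for enzymes that form ATP and lactate (Pgk1, Ldha and Ldhb) did not pass the test. Pgk1, phosphoglycerate kinase (chrX:105230706-105247305, plus strand, 11 exons), had a mean of 107 ± 6.56 FPKM in Sham and 100.3 ± 13.9 in tMCAO/R mice. Its lowest, median and highest values were 97.8, 107 and 115 FPKM in Sham and 74.5, 104 and 114 FPKM in tMCAO/R. The groups overlapped, and the log2FC was -0.11 (95% interval -0.34 to 0.12, adjusted p = 0.425, limma). Pgk1 lies on the X chromosome and has 4 annotated processed copies, none of them in the table.

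Ldha encodes the M subunit of lactate dehydrogenase and Ldhb the H subunit. Ldha has 3 annotated near-identical copies and Ldhb has 1, none of them in the table, so reads can be shared. Ldha (chr7:46490899-46505061, plus strand, 8 exons) ranged from 24.5 to 28.8 FPKM in Sham, around a median of 25.8, and from 20.8 to 29.4 FPKM in tMCAO/R, around 27.7, with a log2FC of 0.02 (95% interval -0.19 to 0.23, adjusted p = 0.877, limma). Ldhb (chr6:142435672-142454586, minus strand, 8 exons) ranged from 71.9 to 89.6 FPKM in Sham, around 73.3, and from 56.2 to 101 FPKM in tMCAO/R, around 87.5, with a log2FC of 0.12 (95% interval -0.16 to 0.39, adjusted p = 0.470, limma). For both genes the groups overlapped, and the lowest of all 12 values was that of tMCAO/R mouse 4. The log2 ratio of Ldha to Ldhb was -1.50 ± 0.17 in Sham and -1.59 ± 0.16 in tMCAO/R mice, and the difference of -0.10 was within the spread (exact permutation p = 0.348, adjusted p = 0.348).

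The transporters and the enzymes were then set against each other within each mouse, as a description and with no test. The mean log2(FPKM + 1) of the 2 transporters was 3.35 in Sham and 4.62 in tMCAO/R mice. That of the 8 enzymes was 4.75 in Sham and 4.74 in tMCAO/R mice. The transporters minus the enzymes ranged from -1.58 to -1.30 in Sham and from -0.30 to 0.15 in tMCAO/R mice, so the groups did not overlap. Its mean moved from -1.40 ± 0.10 to -0.12 ± 0.17, a difference of 1.28. In tMCAO/R mouse 4 both means were low for its group, 4.05 for the transporters and 4.31 for the enzymes, and without this mouse the difference was 1.31. The near-constant enzyme mean joins a fall of Eno1 with a rise of Pfkp and higher values of Hk1 and Eno2.

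**Figure D3:**
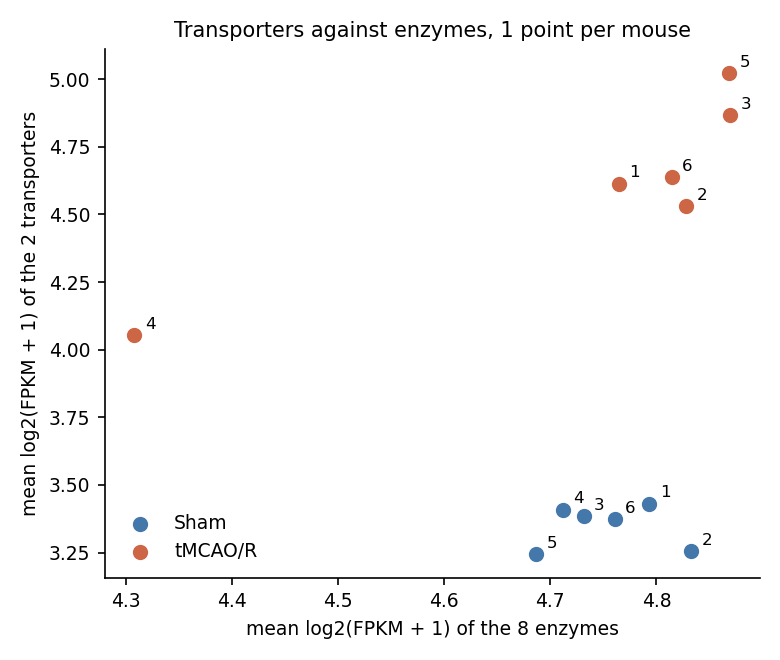
Mean log2(FPKM + 1) of the 2 transporters (vertical axis) against that of the 8 enzymes (horizontal axis), 1 numbered point per mouse, with Sham in blue and tMCAO/R in orange. The tMCAO/R mice lie above the Sham mice on the transporter axis, and tMCAO/R mouse 4 lies apart at 4.31 on the enzyme axis.

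Levels of different genes were compared per kilobase of canonical transcript, scaled to library size, because the lengths behind the deposited FPKM did not follow the annotated exonic lengths. Taking the summed fragments of the table as library size, they came to 0.894 (Eno1) to 3.17 (Eno2) times the annotated length. The library size behind the deposited FPKM is not known, so these multiples hold only up to 1 common factor. On this scale the Sham mice held 544 ± 43.2 for Eno1, then 299 for Ldhb, 294 for Eno2, 254 for Pgk1 and 240 for Ldha. Lower down came Hk1 with 90.5, Pfkp with 45.3, Slc2a3 with 29.1, Slc2a1 with 17.0 and Hk2 with 0.848. Neighbours in this order whose mice overlapped were Ldhb and Eno2, Eno2 and Pgk1, Pgk1 and Ldha, and Slc2a3 and Slc2a1. In tMCAO/R mice the order was Eno2 at 352, Ldhb at 328, Eno1 at 245, Ldha at 244 and Pgk1 at 237.5, and each of these overlapped the next. Slc2a3 reached 63.6 and Slc2a1 53.5 on this scale. Their mice overlapped each other, and both overlapped those of Pfkp, which had a mean of 74.2.

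The promoters were searched for ACGTG, the core of the site that hypoxia-inducible factors bind, on both strands, with its reverse complement CACGT read on the strand of the gene. In the 250 bases before the canonical start (GRCm39), 4 of the 10 genes held it (Hk2, Pfkp, Pgk1 and Ldha), against 20.3% of 14305 promoters of the same length. The second form of the core, GCGTG, was held by 5 of the 10 genes (Slc2a1, Hk1, Eno1, Ldha and Ldhb), against 39.99% of promoters. Stretches of 30 bases with ACGTG or CACGT are shown for the 4 genes, 5′ to 3′ on the strand of the gene, with these cores in capitals, and where both overlap as CACGTG the 6 letters are in capitals. They are shown to give letters behind the count, with CACGTG taken as 1 site. All sites are shown for Pfkp and Pgk1, but only 1 of 2 for Hk2 and 2 of 3 for Ldha. Of these 4 genes Pfkp rose and the other 3 did not pass the test. Of the transporters, Slc2a1 held GCGTG and no ACGTG, and Slc2a3 held neither form in these 250 bases. Annotated exons covered 175 of the 250 bases for Slc2a3, 241 for Hk1, 131 for Ldha, 70 for Eno1, 61 for Eno2 and 17 for Hk2. The windows of Hk1, Slc2a3, Ldha and Ldhb lie inside the annotated spans of their genes. A match there, or its absence, need not concern a promoter.
Ldha promoter, chr7:46495175-46495204, plus strand: gcctaCACGTGggttcccgCACGTccgctg
Pgk1 promoter, chrX:105230553-105230582, plus strand: aggACGTGacaaatggaagtagCACGTctc
Pfkp promoter, chr13:6699107-6699136, minus strand: agcctctgcgccCACGTGgtgggctgacag
Hk2 promoter, chr6:82751470-82751499, minus strand: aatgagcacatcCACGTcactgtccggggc
A match is a run of letters and not a measured binding site.

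The other genes of the same steps were taken from lists. The counts of this and of later lists stand beside 17.8% of all tested genes that rose and 17.8% that fell. Of 16 other tested glycolytic enzymes, none rose and 6 fell, with a median log2FC of -0.30, against -0.01 over all tested genes. Pkm, the pyruvate kinase of brain, fell from 110 ± 6.80 FPKM in Sham to 74.8 ± 16.7 FPKM in tMCAO/R, a log2FC of -0.58 (adjusted p = 0.00544, limma). Of the aldolases, Aldoa (160 to 114 FPKM, log2FC -0.50) and Aldoc of astrocytes (126 to 89.4 FPKM, log2FC -0.51) fell too. Bpgm, which makes 2,3-bisphosphoglycerate in red cells, fell from 15.6 to 9.55 FPKM. All 5 tested red cell markers fell too, and their part in the fall of Bpgm was not tested. Eno3, the muscle enolase, fell by 0.58 on the log2 scale.
Not called were Pgam1 (117 and 127 FPKM), Tpi1 (109 and 95.4), Gpi1 (58.7 and 50.4), Pfkm (37.7 and 40.3) and Pfkl (36.5 and 26.1 FPKM, adjusted p = 0.0641). Gapdh was at 5.96 and 4.49 FPKM (adjusted p = 0.0160, limma), with 78 annotated copies that could share its reads. Without tMCAO/R mouse 4, 1 of the 16 rose (Hkdc1, log2FC 0.93) and 8 fell, Gapdh and Pfkl among them. Of 5 other tested genes of the Slc2a family, not all of which carry glucose, 1 rose and 1 fell. Slc2a13, a proton myo-inositol symporter, rose from 12.4 to 21.1 FPKM (log2FC 0.72). Slc2a5, the fructose transporter of microglia in brain, fell from 1.23 to 0.546 FPKM (log2FC -0.54). Of 10 microglial markers, 4 fell and 1 rose, and their part in the fall of Slc2a5 was not tested. Without tMCAO/R mouse 4, Slc2a12 fell as well (log2FC -0.48). None of the 3 tested regulators of fructose 2,6-bisphosphate (Pfkfb3, Pfkfb4 and Tigar) passed the test with limma, and 1 of them, Pfkfb3, had an unadjusted p below 0.05, with 0.563 FPKM in Sham and 0.841 in tMCAO/R mice (adjusted p = 0.0382).

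The fate of pyruvate was followed in lists for its transport and its oxidation. Of 6 tested genes of lactate and pyruvate transport, none rose and 3 fell. Bsg, the chaperone of lactate transporters, fell from 114 ± 12.0 FPKM in Sham to 60.5 ± 14.0 FPKM in tMCAO/R, a log2FC of -0.94 (adjusted p = 0.000312, limma). Slc16a1, the lactate transporter MCT1 of endothelium and glia, fell from 9.50 to 7.11 FPKM (log2FC -0.37), and Mpc2, a subunit of the mitochondrial pyruvate carrier, fell by 0.50 on the log2 scale. Of 12 genes of the pyruvate dehydrogenase complex, its kinases and its phosphatases, 5 rose and none fell, with a median log2FC of 0.19. Pdp1, the phosphatase that activates the complex, rose from 4.12 ± 0.281 to 12.6 ± 3.40 FPKM (log2FC 1.38, adjusted p = 4.65e-06, limma). Pdk4, a kinase that inactivates it, rose from 2.11 to 5.50 FPKM (log2FC 1.02), so genes of opposite roles rose in the same mice. Pdpr (log2FC 1.00), Pdha1 (18.0 to 31.2 FPKM, log2FC 0.77) and Pdhx (log2FC 0.42) rose as well, and Pdha1 lies on the X chromosome.

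**Figure D4:**
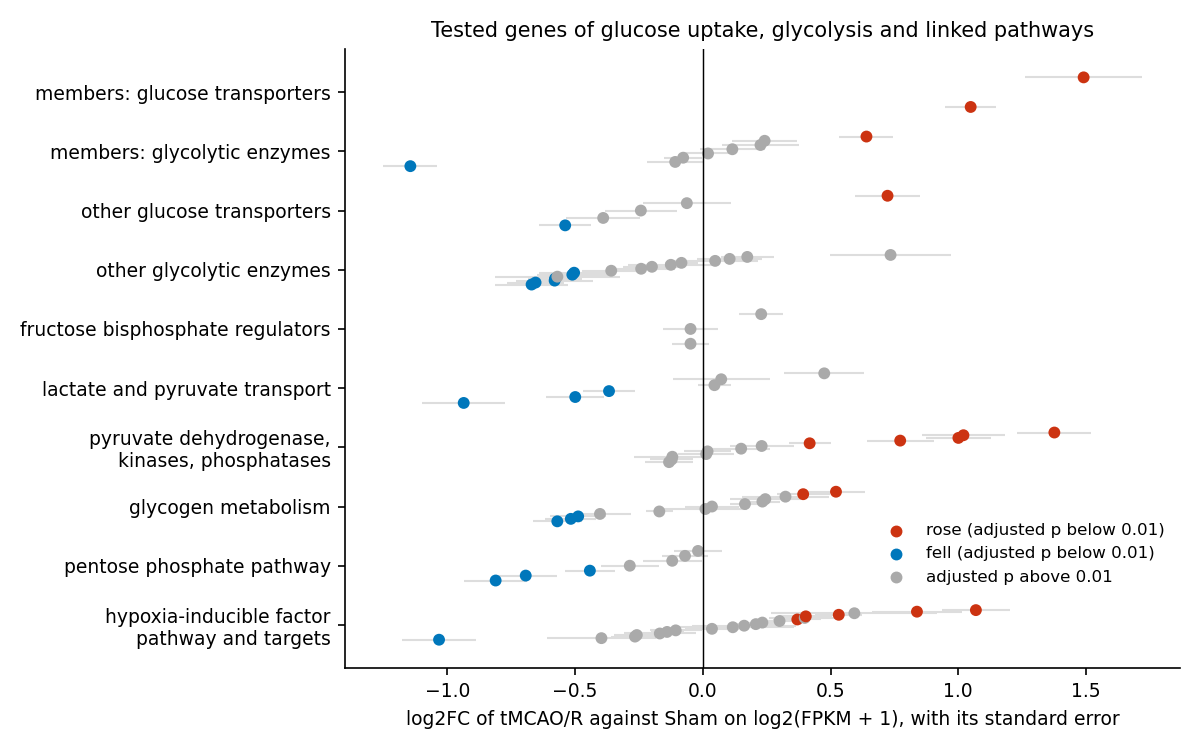
The log2FC (horizontal axis, on log2(FPKM + 1)) of every tested gene of the 10 named genes and the linked lists, 1 point per gene with its standard error, in rows by list. Red points rose, blue points fell and grey points did not pass an adjusted p of 0.01; Slc2a1 lies farthest to the right at 1.49 and Eno1 farthest to the left at -1.15.

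Genes of the hypoxia-inducible factor pathway outside glycolysis were mixed. Of 20 tested, 5 rose and 1 fell, against 17.8% of all tested genes in each direction, with a median log2FC of 0.18. Egln3, a prolyl hydroxylase that the factors themselves induce, rose from 1.86 to 4.89 FPKM (log2FC 1.07), and Adm, the vasodilator adrenomedullin, rose from 0.631 to 1.97 FPKM (log2FC 0.84). Mxi1 (log2FC 0.53), Epas1, which encodes HIF-2 alpha and is high in endothelium (0.40), and Vhl (0.37) rose, whereas the carbonic anhydrase gene Car12 fell by 1.03 on the log2 scale. Vegfa was at 2.82 and 2.92 FPKM (adjusted p = 0.801) and Hif1a at 5.23 and 7.36 FPKM (adjusted p = 0.0265, limma), both not called. Without tMCAO/R mouse 4, 7 of the 20 rose and 2 fell, with Ddit4 (log2FC 0.96) and Egln1 among those that rose and Bnip3l added to those that fell. In that fit 22.4% of all tested genes rose, against 17.8% with all mice.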

How the data were processed

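Reads were trimmed with fastp (version not stated), aligned to GRCm39 with HISAT2 2.2.1 and counted with HTSeq 2.0.2 per the submitters' notes, which also list DESeq2 1.24.0. The authors deposited FPKM for 14317 genes in 12 libraries. The annotation, strand setting and filter behind the table are not given in the sources used here. FPKM are not counts, so groups were compared with limma 3.58.1 (eBayes with trend, R 4.3.3) on log2(FPKM + 1), for genes that reached 0.5 FPKM in 6 or more libraries, with Benjamini-Hochberg adjustment over all 11743 tested genes and an adjusted p of 0.01. All 14317 genes gave whole multiples of 1 fragment (within 1e-05), and limma-voom on these whole fragments was an alternative, for genes with at least 10 fragments in at least 6 libraries. The fragments behind each gene limit its precision; the spread between mice is given as the error.

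Log2 ratios of 4 gene pairs, with 1 FPKM added to each gene, were tested by two-sided exact permutation at an adjusted p of 0.05 (Python 3.11.15, numpy 2.4.6, pandas 2.3.3, scipy 1.17.1). Genes were matched to GENCODE M39 (14315 matched). Near-identical copies were sought with BLAST 2.17.0 at 95% identity over at least 50% of the copy. Promoter sequence was read from the GRCm39 genome. The genes and lists were chosen with earlier results of these data known. Named were the 10 genes, called genes of the lists, the most abundant gene of each list and, for Slc2a1, Slc2a3 and Eno1, the 3 tested genes of at least 5 FPKM with the nearest profile. Pitrm1 and Eno1b, some marker genes and some uncalled list genes were named after their values were seen. Some genes that this rule takes are not reported here. The limma test was checked on simulated data. Alternatives covered the pseudocount, the filter, normalization, the fold threshold, the replicate block and each library left out.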

Additional observations from a re-analysis of the deposited data

Results flagged for a closer look

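In 28 sets of 6 values (each of the 10 genes and the 4 log2 ratios in each group), 1 mouse lay apart from the other 5 in 6 sets, by a gap wider than Dixon's 95% limit for the share of the range. Chance flags about 1 in 20 sets, and the sets share mice. All 6 came from mice numbered 4, in equal parts Sham and tMCAO/R.

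In tMCAO/R mouse 4, whose library stood apart over all genes, Pfkp was low at 9.33 FPKM (others 12.4 to 14.0), Eno2 was low at 30.02 FPKM (others 50.3 to 60.2) and Ldha was low at 20.8 FPKM (others 26.6 to 29.4). In Sham mouse 4, Slc2a1 was high at 14.3 FPKM (others 8.08 to 10.4) and Ldhb was high at 89.6 FPKM (others 71.9 to 77.9). The log2 ratio of Slc2a1 to Slc2a3 was also high in Sham mouse 4 at 1.05 (others -0.15 to 0.28).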

How the results depend on the processing

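Slc2a1, Slc2a3, Pfkp and Eno1 kept their direction and their call in all 20 alternatives to the fit, with log2FC ranges of 1.36 to 1.70, 0.98 to 1.14, 0.60 to 0.71 and -1.19 to -0.97. A |log2FC| above 2 left 0 of the 10 genes higher and 0 lower, with 29 and 30 of all tested genes. A mean of at least 5 FPKM tested fewer genes and called 886 higher and 903 lower. Leaving out each library gave 3 to 5 of the 10 genes higher, 5 without tMCAO/R mouse 4, and 1667 to 2629 of all genes higher. Without that mouse, chosen after seeing the data, 3 of the 8 enzymes rose and 2 other genes of the Slc2a family fell. In the same fit 1 other glycolytic enzyme rose, 5 glycogen genes fell and 2 genes of the hypoxia-inducible factor list fell. Over all 11743 tested genes that fit called 2491 lower, against 2095 with all mice, so more calls were not particular to these lists.

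The sign of a small value turned for Pgk1 with quantile normalization (0.0895, adjusted p = 0.362, limma) and for Ldha with size factors (-0.0018), without tMCAO/R mouse 3 (-0.0066) and without tMCAO/R mouse 6 (-0.0026), none of them called; without each mouse Ldha lay between -0.0066 and 0.0902. The cause was not tested.

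Mouse numbers did not pair the libraries, since the correlations of same-numbered mice lay between -0.12 and 0.22 and no mouse correlated best with its own number. With the replicate block, 1761 genes were higher and 1699 lower. The block gave the ratio of Hk2 to Hk1 as -0.32 and that of Eno1 to Eno2 as -1.37, both with an adjusted p of 0.0625 (exact sign permutation, at p = 0.0312, the smallest that 6 pairs can give), and changed no call among the 10 genes. Leaving out each mouse gave -0.39 to -0.24 for Hk2 to Hk1. The depth limits Hk2 most, at 51 to 109 fragments per library.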

Other observations

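Glycogen genes moved in both directions. Of 13 tested, 2 rose and 3 fell, which is close to the shares over all tested genes, 17.8% in each direction. Pygb, the brain form of glycogen phosphorylase, fell to 25.4 ± 3.69 FPKM from a Sham mean of 35.8 ± 3.06 FPKM (SD, 6 mice a group), a log2FC of -0.49 (limma, adjusted p = 0.00203). The phosphoglucomutase gene Pgm1 (log2FC -0.57) and Phkg1, a catalytic subunit of phosphorylase kinase (-0.52), fell too. Ppp1r3d, a subunit that targets protein phosphatase to glycogen (log2FC 0.52), and Pgm2 (0.39) rose. Without tMCAO/R mouse 4, Gys1, the glycogen synthase gene (log2FC -0.28), and Phka1 (-0.18) fell as well, which made 5. In that fit 2491 of all 11743 tested genes fell, against 2095 with all mice.

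Of 7 tested genes of the pentose phosphate pathway, none rose and 3 fell, against 17.8% of all tested genes in each direction. Taldo1, the transaldolase gene, fell from 25.5 to 15.6 FPKM (log2FC -0.69), Pgls from 6.11 to 3.07 FPKM (-0.81) and Rpia from 1.502 to 0.831 FPKM (-0.44). G6pdx, the gate of the pathway, was at 5.21 and 4.93 FPKM and was not called (adjusted p = 0.539, limma).

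Among 4662 genes, the profile over the 12 libraries nearest to that of Slc2a1 was that of the cadherin gene Cdh22, at a root-mean-square distance of 0.31 on the log2 scale, followed by Olfm2 (0.32) and C130074G19Rik (0.32). Slc2a3 had closer neighbours in Septin11 (0.12) and Mgat5 (0.13). For Eno1 they were Tst, the sulfurtransferase rhodanese (0.12), Gstm1 (0.16) and Pcdhb9 (0.17). Tested genes with at least 1 near-identical copy, 1890 in all, rose in 12.9% and fell in 21.96%, against 18.7% and 17.1% of the 9853 genes with none.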
